A study of Homo sapiens with 21 samples.

Results

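PancB1V and PancB1Q are 2 derivatives of the pancreatic adenocarcinoma cell line Panc 03.27, which is labelled PancVB in its treatment-sensitive form. Both were rendered resistant to 5-fluorouracil, a pyrimidine analogue that blocks thymidylate synthase, over several months of culture with the drug, and the study ranked PancB1Q as the more resistant of the pair. They contribute 2 of the 21 RNA sequencing libraries of the series, which spans 17 parental and resistant cancer cell lines, and they were chosen by their cell line labels alone. All 3 lines were grown in RPMI medium with fetal bovine serum and antibiotics, no genetic construct is named for any of them, and the labels name no drug in the medium at harvest. Each line has 1 library, so the comparison of PancB1V with PancB1Q has no replicate check, and line, culture and library cannot be told apart. No p-value is given for single genes, and intervals cover counting error only.

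NF-kappaB is a family of transcription factors that is held in the cytoplasm by inhibitor proteins and released when receptors for tumour necrosis factor, interleukin-1 or bacterial products signal. Its targets include chemokines that attract neutrophils and monocytes, haematopoietic growth factors, and the inhibitors that switch the pathway off again. Epithelial tumours, those of the pancreas among them, are known to secrete many of these chemokines. 5-fluorouracil itself is activated by enzymes of pyrimidine salvage and degraded by dihydropyrimidine dehydrogenase.

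Scaled to library totals, 85.9% of the genes that separated the lines were higher in PancB1V. That share depended on scaling, at 70.7% with TMM library sizes and 62.3% with DESeq2 size factors. Among genes with at least 20 CPM in the higher line, CXCL8, LTB, CXCL1 and ESM1 differed most. CXCL8 and CXCL1 encode chemokines, LTB a tumour necrosis factor relative and ESM1 an endothelial proteoglycan. CXCL8, which attracts neutrophils, stood at 298 CPM (counts scaled to the library total) in PancB1V against 16.4 CPM in PancB1Q. LTB stood at 370.0 against 25.4 CPM, CXCL1 at 271 against 18.5 CPM and ESM1 at 62.9 against 5.57 CPM. Genes higher in PancB1Q differed less, and the serpin SERPINB5, the activin antagonist FST, the keratin KRT19, and the ligands TGFB2 and BMP4 were among them. SERPINB5 stood at 25.8 CPM in PancB1Q and 6.28 CPM in PancB1V.

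Among protein-coding genes with at least 20 CPM in the higher line, the promoters of the 6 with the largest difference in favour of PancB1V and of the 1 with the largest in favour of PancB1Q are shown because 4 of the 6 encode chemokines that lie near each other on chromosome 4. Each is the stretch of 250 bases before the first RefSeq start of the gene (build GRCh38.p14), read 5′ to 3′ on the strand of the gene. Capitals mark the sequences GGAATTTCC and TGACTCA and the NF-kappaB consensus, searched on both strands. The consensus overlaps GGAATTTCC where a G stands before it or a C after it.
CXCL8 (chr4:73740319-73740568, plus strand): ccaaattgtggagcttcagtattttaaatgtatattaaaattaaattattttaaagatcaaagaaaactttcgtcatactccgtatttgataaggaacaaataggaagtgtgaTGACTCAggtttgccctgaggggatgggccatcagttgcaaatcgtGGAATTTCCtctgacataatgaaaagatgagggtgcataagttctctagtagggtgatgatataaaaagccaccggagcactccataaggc
LTB (chr6:31582426-31582675, minus strand): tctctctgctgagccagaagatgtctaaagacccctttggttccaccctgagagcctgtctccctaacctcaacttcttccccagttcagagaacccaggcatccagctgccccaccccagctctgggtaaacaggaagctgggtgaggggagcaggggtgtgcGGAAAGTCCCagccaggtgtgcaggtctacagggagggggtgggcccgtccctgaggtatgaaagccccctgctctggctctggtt
CXCL1 (chr4:73869143-73869392, plus strand): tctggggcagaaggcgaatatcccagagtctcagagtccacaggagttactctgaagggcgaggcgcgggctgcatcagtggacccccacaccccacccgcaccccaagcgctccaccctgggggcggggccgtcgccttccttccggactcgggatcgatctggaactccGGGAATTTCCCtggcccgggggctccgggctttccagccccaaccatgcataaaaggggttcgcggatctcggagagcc
ESM1 (chr5:54985594-54985843, minus strand): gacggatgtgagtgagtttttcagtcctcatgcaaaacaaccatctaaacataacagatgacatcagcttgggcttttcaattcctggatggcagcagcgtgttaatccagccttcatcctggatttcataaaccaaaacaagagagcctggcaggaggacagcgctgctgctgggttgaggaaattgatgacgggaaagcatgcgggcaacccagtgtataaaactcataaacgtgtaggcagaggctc
CXCL3 (chr4:74038690-74038939, minus strand): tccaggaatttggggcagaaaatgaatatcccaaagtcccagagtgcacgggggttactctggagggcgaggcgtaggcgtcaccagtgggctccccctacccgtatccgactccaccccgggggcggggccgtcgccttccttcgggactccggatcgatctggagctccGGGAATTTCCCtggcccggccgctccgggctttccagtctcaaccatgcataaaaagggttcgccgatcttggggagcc
CXCL6 (chr4:73836428-73836677, plus strand): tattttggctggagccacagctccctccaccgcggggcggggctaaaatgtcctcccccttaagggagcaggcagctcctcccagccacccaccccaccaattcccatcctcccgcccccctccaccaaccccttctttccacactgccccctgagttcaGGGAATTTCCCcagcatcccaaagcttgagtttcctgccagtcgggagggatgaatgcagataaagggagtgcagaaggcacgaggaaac
SERPINB5 (chr18:63476708-63476957, plus strand): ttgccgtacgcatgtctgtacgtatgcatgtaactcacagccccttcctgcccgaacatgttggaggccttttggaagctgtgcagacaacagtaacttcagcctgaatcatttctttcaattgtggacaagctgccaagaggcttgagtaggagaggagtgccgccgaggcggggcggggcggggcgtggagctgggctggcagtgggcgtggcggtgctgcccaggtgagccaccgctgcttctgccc
GGAATTTCC was present in 4 of the 7 windows, those of CXCL8, CXCL1, CXCL3 and CXCL6, at 91 to 83, 78 to 70, 78 to 70 and 89 to 81 bases before the start. In CXCL1, CXCL3 and CXCL6 the letters around it also match the consensus, and LTB holds a consensus match 86 to 77 bases before its start. CXCL8 holds TGACTCA 137 to 131 bases before its start. The windows of ESM1 and SERPINB5 hold none of the 3. Among all 27195 promoters of this length, 0.430% hold GGAATTTCC, 9.60% the consensus and 4.12% TGACTCA. Among the 8708 promoters of genes with at least 5 CPM in either line, the shares were 0.471%, 11.8% and 2.43%. Of the 262 genes higher in PancB1V, 181 had a promoter in the RefSeq table, of which 5.52% hold GGAATTTCC, 19.9% the consensus and 8.84% TGACTCA. A list of inflammatory cytokines and NF-kappaB targets, described below, supplied 7 of the 10 with GGAATTTCC. It supplied 9 of the 36 with the consensus and 4 of the 16 with TGACTCA. Of the 24 promoters of list genes with at least 5 CPM, whichever line was higher, 10 (41.7%) hold GGAATTTCC, 13 the consensus and 5 TGACTCA. Of the 15 promoters of list genes higher in PancB1V, 7 (46.7%), 9 and 4 do. The list holds NF-kappaB targets by design, and whether these sequences go with the list or with being higher in PancB1V was not tested. Of the 42 genes higher in PancB1Q that were searched, 36 had a promoter, of which 0 hold GGAATTTCC, 11.1% the consensus and 8.33% TGACTCA. These matches describe letters, and no binding was measured.

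Of 53515 genes in the files, 10993 had at least 5 CPM in PancB1V or PancB1Q. Differences are on the log2(CPM + 1) scale, PancB1V minus PancB1Q, and a gene was taken as higher in a line when its difference was at least 1. By this rule 262 genes (2.38%) were higher in PancB1V and 43 (0.391%) were higher in PancB1Q. The median difference was 0.06, and 83.3% of genes differed by less than 0.5. Of the 305 genes, 85.9% were thus higher in PancB1V, a share that was 70.7% with TMM library sizes (188 against 78 genes) and 62.3% with DESeq2 size factors (167 against 101), since these scalings moved the median of all genes by -0.14 and -0.19. All 305 counting intervals of the CPM ratio excluded 1, as did 70.1% of all genes tested. A difference of at least 2 was reached by 31 genes in favour of PancB1V and 2 in favour of PancB1Q. CLDN15 (1.00) and F3 (-1.005) lay just inside the threshold, and ANK1 (-0.998) lay just outside it.

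**Figure D1:**
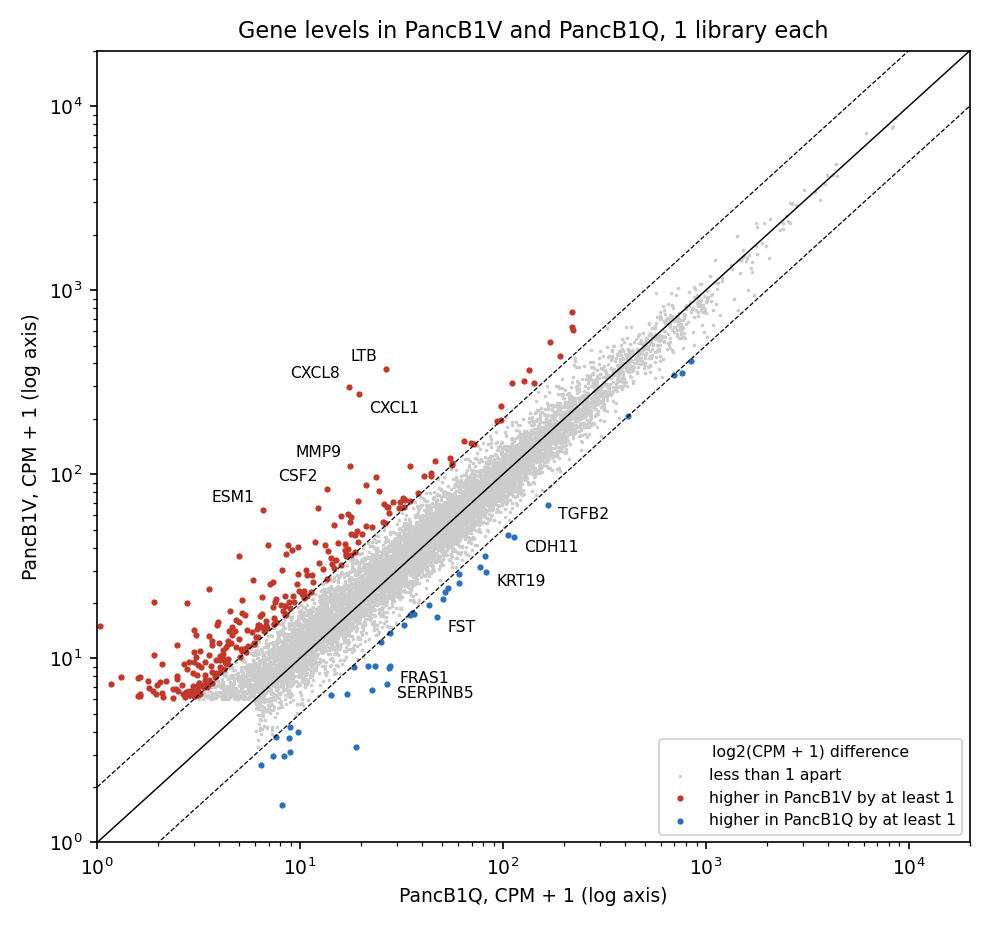
Level of each gene with at least 5 CPM in either line, as CPM + 1 on log axes, with PancB1Q on the x axis and PancB1V on the y axis. Red and blue points differ by at least 1 on the log2 scale, dashed lines mark that difference and the solid line equality. Red points outnumber blue ones, and LTB, CXCL8 and CXCL1 lie farthest above the line among the labelled genes.

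Replicates of other cell lines show how far libraries of the same line can lie apart, and HepG2, HepG2S3 and HCC4006ER are the 3 lines whose replicates were both fully counted. Under the same rule, replicates of HepG2S3 differed at 0.0555% of genes and those of HCC4006ER at 0.00885%, well below the 2.77% between PancB1V and PancB1Q. Replicates of the hepatoma line HepG2, however, differed at 5.32% of genes (573 of 10764). The count of 305 genes is therefore within the spread of 1 replicated line and outside that of the 2 others. HepG2 and the pancreatic pair shared 21 of these genes, which are 6.89% of the 305 and 3.66% of the 573. Of the single genes, 251 of the 262 and 38 of the 43 differed by more between PancB1V and PancB1Q than between the replicates of any of these 3 lines. Levels in those lines were not filtered for this count. A gene hardly detected there passes whatever its spread, so the count does not measure replicate error. The fourth replicated line, HCC4006P1, has a library that lacks counts for part of the genome, and its replicates differed at 18.1% of genes.

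**Figure D2:**
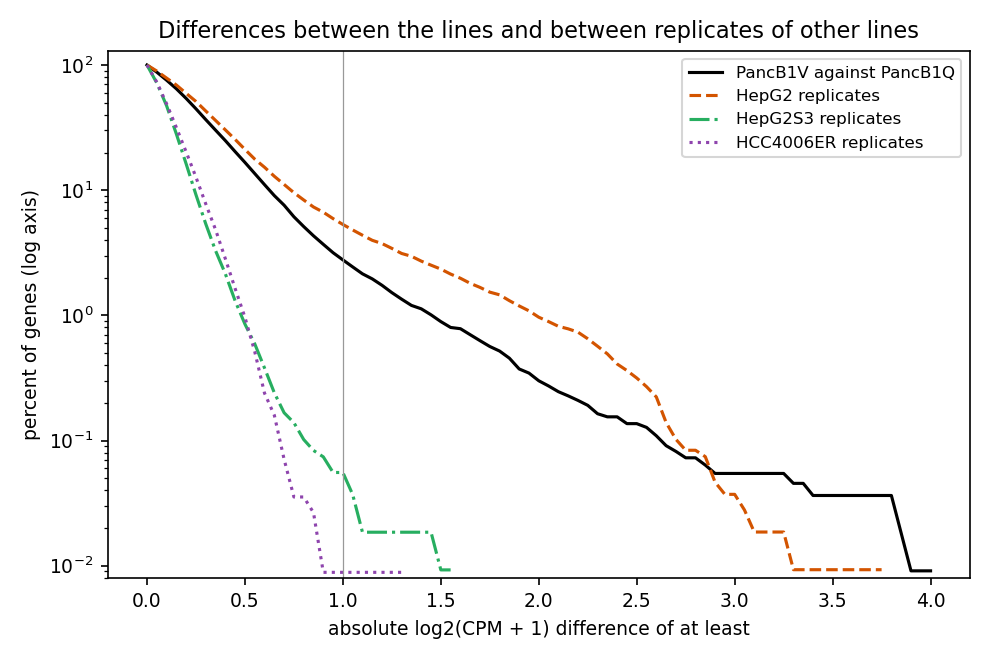
Percent of genes (log axis) whose absolute log2(CPM + 1) difference reaches the value on the x axis, for PancB1V against PancB1Q and for replicate 1 against replicate 2 of 3 other lines. At a difference of 1 the pair lies at 2.77%, between HepG2 replicates at 5.32% and HepG2S3 replicates at 0.0555%.

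With the spread borrowed from the replicated lines, the contrast of PancB1V with PancB1Q in edgeR called 0 of 21638 genes at an adjusted p under 0.05, and 2428 at an unadjusted p under 0.05. DESeq2 on the same 20 libraries called 55 genes higher in PancB1V and 56 higher in PancB1Q, and 1047 at an unadjusted p under 0.05. Both rest on the assumption that the pancreatic lines vary between cultures as HepG2, HepG2S3 and HCC4006ER did.

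The libraries were of like depth, and PancB1Q and PancB1V had like shares of mitochondrial, ribosomal protein and highest genes. Alignments that fell in no counted gene made up 6.83% in PancB1Q, 8.76% in PancB1V and 10.7% in PancVB. PancB1Q had 28560479 counts on genes, PancB1V 24835303 and PancVB 21723626, so that 3 counts correspond to 0.105, 0.121 and 0.138 CPM. Mitochondrial genes took 5.52% of counts in PancB1Q and 5.39% in PancB1V, ribosomal protein genes 3.96% and 3.88%, and the 10 highest genes 5.59% and 5.58%. The difference moved with GC content: ordered by GC content of the transcript, the lowest 2676 genes had a median of -0.11 with 23 genes higher in PancB1V, and the highest 2676 a median of 0.28 with 109. The part of GC content in these counts was not tested beyond removal of the trend, which left 232 genes higher in PancB1V and 45 higher in PancB1Q.

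Of 8 matched markers of ductal epithelium, 6 had at least 5 CPM in either line. The 8 summed to 3399 CPM in PancB1Q and 2837 CPM in PancB1V, against 6244 CPM in PancVB. KRT7 stood at 1055 CPM in PancB1Q and 876 CPM in PancB1V, KRT8 at 1018 and 878 CPM, and KRT18 at 984 and 797 CPM. KRT19 stood lower at 82.0 and 28.6 CPM, against 677 CPM in PancVB, and CFTR had 0 counts in both resistant lines. The 14 fibroblast markers summed to 9.35 CPM in PancB1Q and 11.3 CPM in PancB1V, and the 14 immune markers to 13.9 and 19.01 CPM, of which CD68 gave 11.9 and 16.8 CPM. MS4A1, NKG7, CD3D and TYROBP, which define lymphocytes and myeloid cells, had 0 counts in both lines. The 10 endothelial and erythroid markers summed to 48.5 and 72.8 CPM, nearly all from the cadherin CDH5 at 45.9 and 68.5 CPM.

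Inflammatory cytokines and NF-kappaB targets formed the list with the largest difference. Of its 46 genes 44 were matched and 35 passed 5 CPM, of which 19 (54.3%, against 2.38% of all genes) were higher in PancB1V and 0 in PancB1Q. The median difference over the 35 was 1.23, and 33 lay above 0. It remained at 1.10 with TMM library sizes, 1.05 with DESeq2 size factors and 1.14 with the GC trend removed, with 19, 19 and 21 genes called. Of the 29 lists with at least 5 genes past 5 CPM, it was the only list with a median of at least 1 in either direction. The summed level of the 44 genes was 2455 CPM in PancB1Q, 5542 CPM in PancB1V and 2026 CPM in PancVB. Between replicates of HepG2, 2 of 20 genes of the list differed by at least 1, with a median of 0.01, and 0 did in HepG2S3 or HCC4006ER. The list was chosen with earlier results of these data known.

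**Figure D3:**
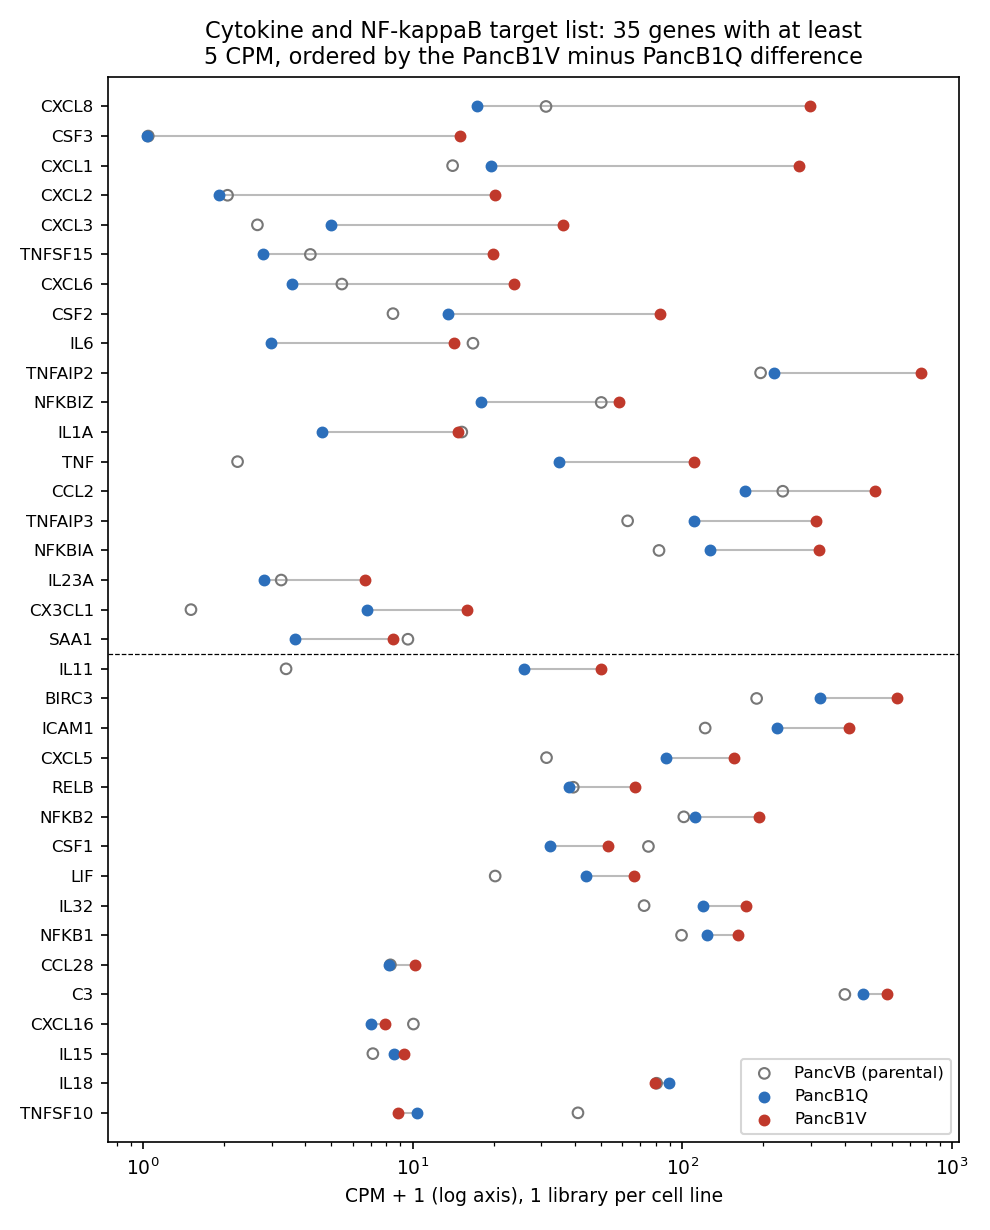
Level (CPM + 1, log axis) of the 35 genes of the cytokine and NF-kappaB target list with at least 5 CPM, in PancVB (open), PancB1Q (blue) and PancB1V (red), 1 library each. The 19 genes above the dashed line were higher in PancB1V by at least 1, from SAA1 (1.21) to CXCL8 (4.11), and only IL18 and TNFSF10 lay below 0.

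Of the list, CXCL8, a neutrophil-attracting chemokine, differed most. CXCL8 had a ratio of 18.2 (16.6 to 20.05, 95% exact binomial interval), although its level also differed by 1.38 between replicates of HepG2. CXCL1 had a ratio of 14.7 (13.4 to 16.1). The CXCL1 replicates of the 3 fully counted lines differed by at most 0.23, with no filter on its level there. CXCL8 (74606236 to 74609433), CXCL6 (74702357 to 74714781) and CXCL1 (74735110 to 74737025) followed each other on chromosome 4 (hg19) among the genes past 5 CPM, with CXCL3 (74902306 to 74904524) and CXCL2 (74962757 to 74964913) further along. All 5 were at least 1 higher in PancB1V. CXCL6 stood at 22.9 against 2.56 CPM, CXCL3 at 35.03 against 3.99 CPM and CXCL2 at 19.1 against 0.910 CPM. CXCL5, of the same group of chemokines, lay under the threshold at 155 against 86.0 CPM (0.84). CXCL1, CXCL2 and CXCL3 are close copies of each other, and reads that fit more than 1 place, 27.3% of the alignments in PancB1Q and 26.4% in PancB1V, were not counted for any gene.

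In PancVB these 5 chemokines lay within 1 of their level in PancB1Q on the log2(CPM + 1) scale, in both directions. PancB1Q minus PancVB was -0.85 for CXCL8 and 0.91 for CXCL3. CXCL8 stood at 30.2 CPM in PancVB, CXCL1 at 13.1 CPM, CXCL6 at 4.47 CPM, CXCL3 at 1.66 CPM and CXCL2 at 1.06 CPM. All 5 were thus highest in PancB1V among the 3 lines. Lung lines of the series held more: CXCL8 reached 1455 CPM and CXCL1 907 CPM in HCC827GR, and PancB1V ranked 6th and 5th of 17 lines for them.

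Chemokines for monocytes were also higher in PancB1V. CCL2, which recruits monocytes, stood at 520 CPM in PancB1V, 170 CPM in PancB1Q and 235 CPM in PancVB. CX3CL1, a membrane-bound chemokine, stood at 14.9, 5.78 and 0.506 CPM.

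Among haematopoietic growth factors, CSF3 and CSF2 differed most. CSF3, the granulocyte factor, had 349 counts in PancB1V, 1 in PancB1Q and 1 in PancVB, a ratio of PancB1V to PancB1Q of 401 (71.6 to 15897). At 14.1 CPM its level in PancB1V was the highest of the 17 lines, followed by HCC827GR at 1.09 CPM. CSF2, the granulocyte and macrophage factor, stood at 82.1 CPM against 12.5 CPM in PancB1Q and 7.46 CPM in PancVB. CSF1 (0.71) and LIF (0.59) lay under the threshold.

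Cytokines of the tumour necrosis factor and interleukin families followed. TNF stood at 109 CPM in PancB1V, 34.0 CPM in PancB1Q and 1.24 CPM in PancVB, and its neighbour LTB on chromosome 6, which forms lymphotoxin heterotrimers, at 370.0, 25.4 and 103 CPM. Both were highest in PancB1V among all 17 lines. Their replicate differences in the 3 fully counted lines were at most 0.08, at lower levels, so they do not measure spread at the level of PancB1V. TNFSF15 stood at 18.9 against 1.79 CPM, IL6 at 13.2 against 2.00 CPM and IL1A at 13.8 against 3.61 CPM. IL6 and IL1A had PancVB levels of 15.7 and 14.2 CPM, so that for these PancB1V lay near PancVB and PancB1Q below both. IL18 (-0.17) and the apoptosis ligand TNFSF10 (-0.24) were not higher in PancB1V.

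Receptors and core signalling genes were also measured. The receptor genes LTBR (0.46), TNFRSF1A (0.22), TLR2 (0.61) and TLR4 (-0.42), and the kinase genes IKBKB (0.38) and CHUK (-0.24), which were chosen after their values were seen, all lay within 1. The subunits themselves, NFKB1 (0.39), NFKB2 (0.79), RELB (0.82) and RELA (0.43, also chosen afterwards), were on the side of PancB1V and under the threshold.

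Several feedback inhibitors and other regulators of the pathway were higher in PancB1V. NFKBIA, which encodes the inhibitor IkappaBalpha, stood at 321 against 126 CPM, a ratio of 2.54 (2.44 to 2.64). TNFAIP3, the ubiquitin-editing enzyme A20, stood at 311 against 110 CPM, a ratio of 2.84 (2.72 to 2.96). NFKBIZ stood at 57.4 against 16.9 CPM, and ZC3H12A, a ribonuclease that degrades cytokine transcripts, at 64.9 against 11.2 CPM. All 4 thus differed in the same direction as the chemokines. Further genes of the pathway, which were chosen after their values were seen, were TNIP1, a partner of A20 (607 against 221 CPM), TRAF1 (311 against 142 CPM), BCL3 (20.3 against 9.42 CPM), IER3 (235 against 96.8 CPM) and the host gene of microRNA-155, MIR155HG (8.54 against 3.26 CPM). Of the survival and adhesion genes of the list, BIRC3 (0.94) and ICAM1 (0.88) lay just under the threshold and complement C3 at 0.30.

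Interferon-stimulated genes differed little. Of 45 with at least 5 CPM, 2 were higher in PancB1V and 0 in PancB1Q, against 2.38% and 0.391% of all genes. Of the 45, 34 lay above 0, with a median of 0.16 against 0.06 for all genes, which was 0.01 with TMM library sizes and -0.04 with DESeq2 size factors. The 2 were IRF1 (96.6 against 43.2 CPM), a transcription factor that NF-kappaB also induces, and the exonuclease gene ISG20 (19.9 against 6.62 CPM). IRF1 was under the threshold with TMM library sizes (0.99). ISG15 (0.07), MX1 (0.11) and IFIT1 (0.04) were near equal, and all 3 were higher in PancVB at 83.8, 52.8 and 84.2 CPM than in PancB1V at 15.0, 9.66 and 6.56 CPM. In antigen presentation, 0 of 17 genes reached the threshold, near the 2.77% over all genes.

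**Figure D4:**
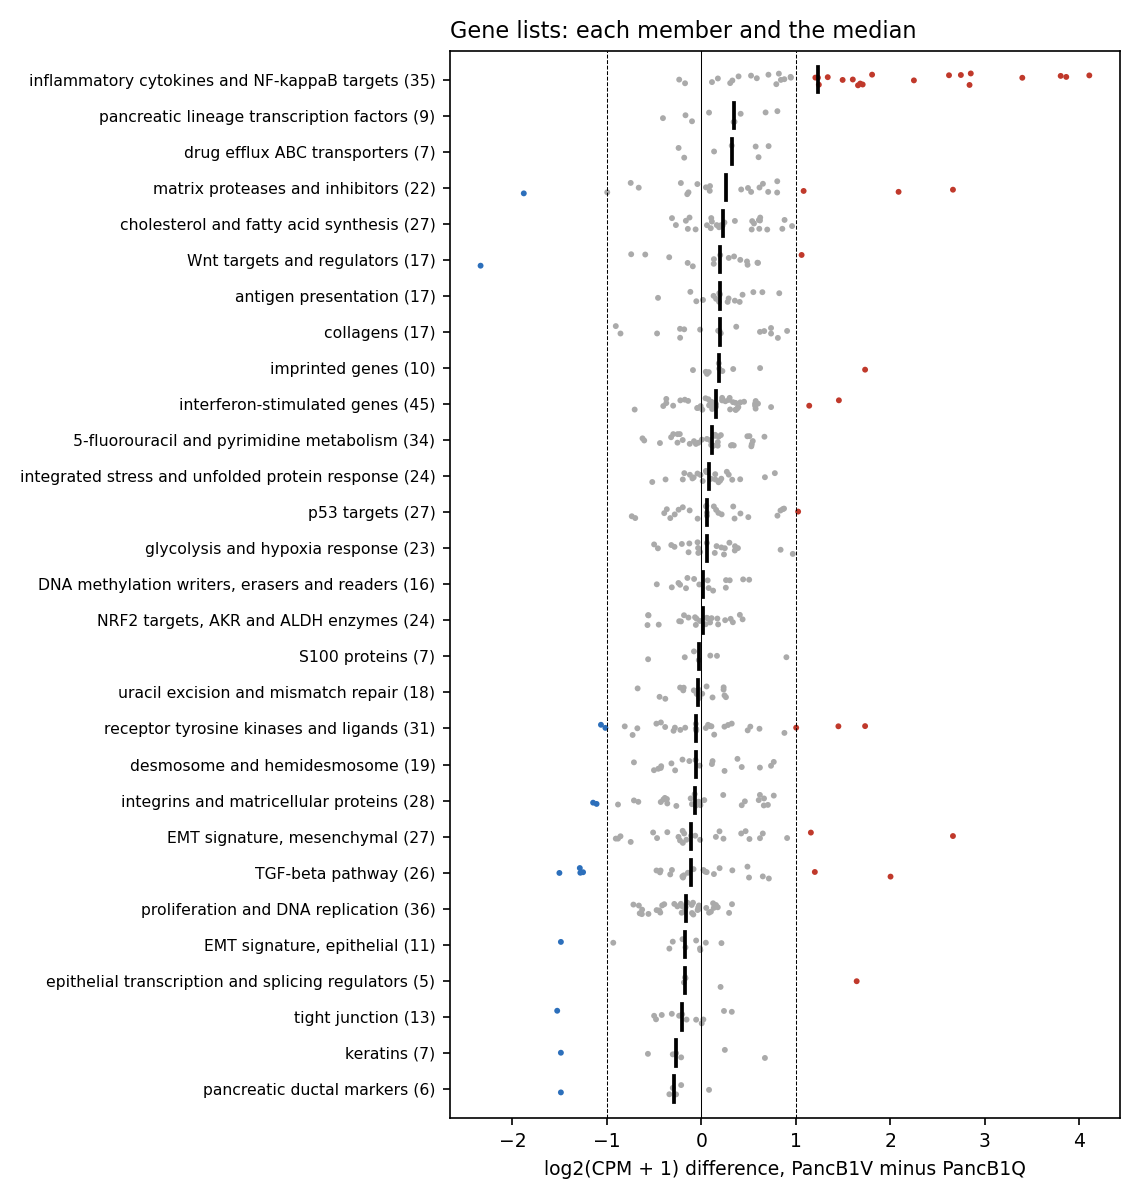
Difference of each member with at least 5 CPM (dots, red at or above 1, blue at or below -1) and the median (black bar) of the 29 gene lists with at least 5 such members, on the log2(CPM + 1) scale, PancB1V minus PancB1Q. The number of members stands in brackets. The cytokine and NF-kappaB target list is the only list whose median, 1.23, passes the dashed line, and the others lie between -0.29 and 0.34.

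Genes of 5-fluorouracil handling lay below the threshold, as most genes did. Of the 43 genes of the list, 34 had at least 5 CPM and 0 reached the threshold in either direction, near the 2.77% over all genes. Their differences lay between -0.62 and 0.67 with a median of 0.11, which was -0.03 with TMM library sizes. TYMS, the target of the drug, stood at 355 CPM in PancB1Q, 347 CPM in PancB1V and 158 CPM in PancVB, and the ratio of PancB1V to PancB1Q was 0.978 (0.9505 to 1.01). Both resistant lines thus lay above PancVB and within counting error of each other, although the difference of -0.03 was -0.18 with TMM library sizes. DPYD, which degrades the drug, stood at 82.7 CPM in PancB1Q, 53.4 CPM in PancB1V and 142 CPM in PancVB. The subunits of ribonucleotide reductase, RRM1 (252 against 166 CPM) and RRM2 (410 against 302 CPM), were higher in PancB1Q by less than 1, and differed by up to 1.54 and 2.25 between replicates of the 3 fully counted lines.

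Enzymes that activate the drug differed by less than 1, and in both directions. UMPS, which phosphoribosylates it, stood at 66.1 CPM in PancB1Q and 53.6 CPM in PancB1V, and the uridine phosphorylase UPP1 at 64.9 and 92.7 CPM. UCK2 (0.13), TK1 (0.09) and TYMP (0.17) had small differences whose sign changed with the scaling or the removal of the GC trend. The nucleoside transporter SLC29A1 stood at 133 and 168 CPM. Among efflux pumps, ABCC5 stood at 42.5 and 53.3 CPM, ABCB1 at 0.350 and 1.13 CPM, and ABCC11 had 1 count in each library. In uracil excision and mismatch repair, 0 of 18 genes reached the threshold, also near the 2.77% over all genes, with a median of -0.04.

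The epithelial-mesenchymal signature of the study, a list of epithelial and mesenchymal genes, gave a small difference. Its genes were grouped as labelled in the supplement of the study, where 37 are mesenchymal, 1 of them unmatched. The group sizes differ from those stated in the main text of the study. The mean difference over 13 epithelial genes was -0.32 and that over 36 mesenchymal genes 0.09, which gives a mesenchymal minus epithelial difference of 0.41 (0.07 to 0.70 from the counting bounds of the members). Replicates of HepG2 differed by 0.31 on the same measure, HepG2S3 by 0.11 and HCC4006ER by 0.03. With medians in place of means it was 0.17, and without MMP9 and KRT19, the members that differed most, it was 0.24. The mesenchymal mean itself turned to -0.03 with TMM library sizes and -0.07 with DESeq2 size factors, while the epithelial mean stayed below 0.

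Members of the signature went both ways. Of 11 epithelial genes with at least 5 CPM, 1 was lower in PancB1V by at least 1, KRT19 at 28.6 CPM against 82.0 CPM in PancB1Q and 677 CPM in PancVB, and KRT19 also differed by 1.10 between replicates of HepG2. CDH1, E-cadherin, was below 5 CPM with 0.805 CPM in PancB1V and 3.12 CPM in PancB1Q. EPCAM stood at 50.8 and 64.5 CPM. Of 27 mesenchymal genes, MMP9 and the adhesion receptor VCAM1 were higher in PancB1V, the latter at 24.8 against 10.6 CPM and under the threshold with DESeq2 size factors (0.97). FN1 (-0.88) and COL12A1 (-0.86) were on the side of PancB1Q, while COL7A1 (0.91) was on the side of PancB1V. VIM stood at 2442 CPM in PancB1V and 2077 CPM in PancB1Q, and CDH2 at 317 and 363 CPM.

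Transcription factors of the transition were alike in both lines. ZEB1 stood at 54.0 CPM in PancB1V and 56.6 CPM in PancB1Q, with a sign that changed on removal of the GC trend, and ZEB2 at 17.96 and 12.3 CPM. SNAI2 stood at 33.9 and 39.0 CPM and SNAI1, whose sign also changed on removal of the GC trend, at 2.05 and 1.72 CPM. TWIST1 had 0 counts in both, which allows up to 0.121 and 0.105 CPM.

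Among matrix proteases, the gelatinase MMP9 was higher in PancB1V at 110 CPM against 16.6 CPM in PancB1Q and 0.921 CPM in PancVB, and both derivatives ranked above the other 15 lines. Also higher were the protease inhibitors TIMP3 (146 against 68.5 CPM) and SERPINA3 (6.52 against 0.770 CPM), of which TIMP3 was under the threshold with TMM library sizes (0.93). SERPINB5, maspin, was the single gene of this list higher in PancB1Q. ADAMTS9, a secreted metalloprotease gene, stood at 40.4 against 5.99 CPM. SERPINA3 and ADAMTS9 also differed by up to 2.17 and 1.48 between replicates of the 3 fully counted lines.

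Of 26 TGF-beta pathway genes, 2 were higher in PancB1V and 4 in PancB1Q, against 2.38% and 0.391% of all genes. INHBA, which encodes the activin subunit betaA, stood at 437 CPM in PancB1V, 189 CPM in PancB1Q and 6.72 CPM in PancVB, and was just under the threshold with DESeq2 size factors (0.9999). BMP2 stood at 17.03, 3.50 and 0.460 CPM. FST, which binds and blocks activins, went the other way at 15.7 CPM in PancB1V, 46.5 CPM in PancB1Q and 76.1 CPM in PancVB. TGFB2 (67.3 against 166 CPM), BMP4 (19.9 against 49.8 CPM) and LTBP1, which tethers latent TGF-beta (24.6 against 59.9 CPM), were likewise higher in PancB1Q. LTBP1 also differed by 2.05 between replicates of a fully counted line, more than the -1.25 between the pair. Of the targets of the pathway among matricellular proteins, THBS1 (352 against 760 CPM) and TGFBI (23.1 against 52.4 CPM) were higher in PancB1Q, and both were higher again in PancVB at 3337 and 187 CPM. Replicates of the 3 fully counted lines differed by up to 1.49 for THBS1 and 1.69 for TGFBI, more than PancB1V and PancB1Q did.

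Of 31 receptor tyrosine kinase and ligand genes, 3 were higher in PancB1V and 2 in PancB1Q, against 2.38% and 0.391% of all genes. IGF2, an imprinted fetal growth factor, stood at 80.7 CPM in PancB1V, 23.6 CPM in PancB1Q and 0.368 CPM in PancVB. The ephrin ligand EFNA1 stood at 41.2 against 14.4 CPM, and IGFBP6, at the threshold (1.00), at 26.1 against 12.5 CPM. IGFBP3 (12.7 against 26.7 CPM) and the ERK phosphatase gene DUSP4 (16.5 against 35.5 CPM) were higher in PancB1Q, DUSP4 by less than the 1.12 between replicates of a fully counted line. In the Wnt list, the ligand WNT10A stood at 14.8 against 6.58 CPM (0.93 with TMM library sizes, as IGFBP6 was 0.86) and LGR6, a receptor for R-spondins, at 0.604 against 7.11 CPM.

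Proliferation genes lay slightly on the side of PancB1Q, with 27 of 36 below 0 and a median of -0.16, and 0 reached the threshold. The median was -0.31 with TMM library sizes (32 below 0) and -0.36 with DESeq2 size factors (34 below 0). MKI67 stood at 1233 CPM in PancB1V and 1471 CPM in PancB1Q, and TOP2A at 595 and 981 CPM, though both differed far more between replicates of a fully counted line, by 3.26 and 2.88. Cholesterol and fatty acid synthesis lay on the side of PancB1V, with 21 of 27 genes above 0, a median of 0.23 and 0 at the threshold. That median was 0.08 with TMM library sizes (17 above 0) and 0.03 with DESeq2 size factors (15 above 0). The sterol enzyme HMGCS1 stood at 301 against 163 CPM. Of the p53 targets, BBC3 (11.1 against 4.94 CPM) was higher in PancB1V, though not with TMM library sizes (0.89). The cancer-testis gene MAGEB2 stood at 8.38 against 1.09 CPM. All 27 mucins, CEACAMs and trefoil factors were below 5 CPM in both lines.

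Outside the list of cytokines, the larger differences included secreted and adhesion proteins. ESM1 stood at 62.9 CPM in PancB1V, 5.57 CPM in PancB1Q and 50.5 CPM in PancVB, so that PancB1Q was the low line. RELN, a secreted matrix glycoprotein, stood at 40.4 CPM, 7.74 CPM and 0 counts, which allows up to 0.138 CPM in PancVB, and differed by 1.55 between replicates of a fully counted line. NALF2 stood at 25.5, 4.87 and 4.00 CPM. The epithelial transcription factor ELF3 stood at 5.52, 1.09 and 14.3 CPM. In favour of PancB1Q, the adaptor AFAP1L2 stood at 21.7 CPM in PancB1Q, 5.72 CPM in PancB1V and 58.9 CPM in PancVB, and the basement membrane gene FRAS1 at 26.4, 7.81 and 161 CPM. SLITRK6 stood at 26.8, 8.09 and 0.552 CPM, and the cadherin CDH11 at 112, 44.5 and 5.16 CPM, the highest of the 17 lines in PancB1Q. SFXN2 (22.5 against 8.05 CPM, with up to 1.51 between replicates of the 3 fully counted lines) and EFEMP1 (76.4 against 30.3 CPM) were the others of the 12 largest at 20 CPM or more. The tight junction gene CGN stood at 7.91 against 2.09 CPM. Non-coding genes gave LINC01610 (45.7 CPM in PancB1V against 17.7 CPM) and AL161626.1 (409 against 842 CPM). Of genes chosen after their values were seen, the stem cell marker PROM1 (2.30 against 17.96 CPM), the immune checkpoint ligand CD274 (27.7 against 59.98 CPM) and EPAS1, the hypoxia factor HIF-2alpha (8.09 against 20.6 CPM), were higher in PancB1Q, and the costimulatory ligand ICOSLG (95.3 against 22.5 CPM) was higher in PancB1V.

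**Figure D5:**
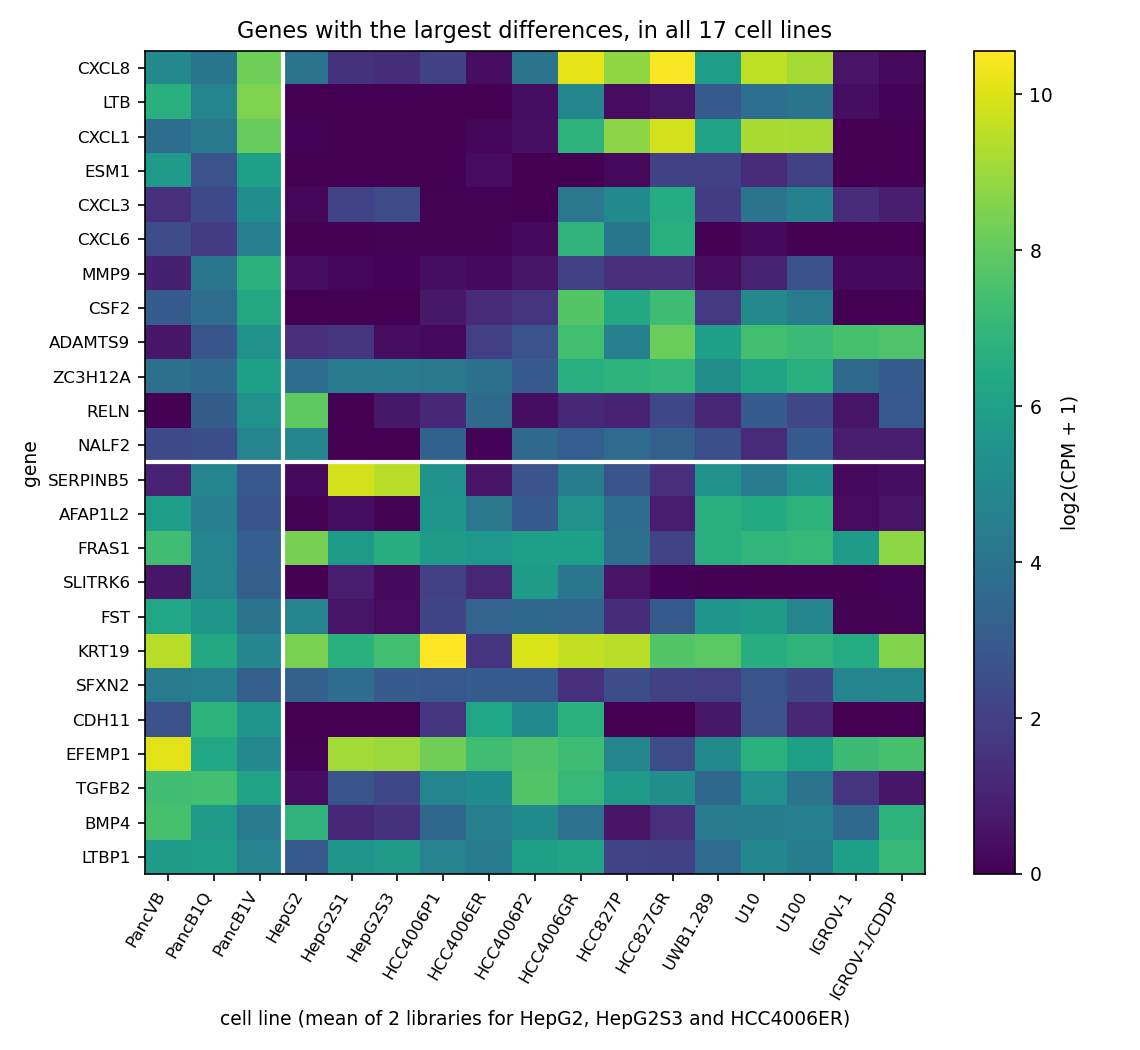
Level, as log2(CPM + 1), in the 17 cell lines, of the 12 protein-coding genes with the largest difference in favour of PancB1V (upper rows) and of PancB1Q (lower rows) among those with at least 20 CPM in the higher line. LTB, ESM1 and MMP9 reached their highest level in PancB1V and CDH11 in PancB1Q, whereas CXCL8, CXCL1 and CXCL3 were highest in HCC827GR. HCC4006P1 is shown by replicate 2.

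The level in PancVB shows on which side of the parental line each gene lay. Of the 262 genes higher in PancB1V, PancB1Q alone was within 2-fold of PancVB for 111, PancB1V alone for 43, both for 35 and neither for 73. Of the 73, both lines lay above PancVB for 61 and both below for 11. Of the 43 genes higher in PancB1Q, PancB1Q alone was within 2-fold for 13, PancB1V alone for 1, both for 7 and neither for 22, of which 14 were below PancVB in both lines. The 3 lines share these libraries, so the counts describe where the levels lie and are not independent of each other.

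By chromosome, the median difference lay between -0.08 on chromosome 4 and 0.24 on chromosome 19, a range of 0.32. Chromosome 19 genes had the highest median GC content, at 58.3%, and with the GC trend removed the highest median was that of chromosome 21, at 0.20. In runs of 40 neighbouring genes with the GC trend removed, medians lay between -0.16 (FAF1 to MYSM1 on chromosome 1) and 0.31 (NSMCE2 to PYCR3 on chromosome 8). The pair of such runs that held the 5 chemokine genes of chromosome 4 (SCFD2 to THAP6 and UBA6-DT to HNRNPD) had medians of 0.08 and 0.08.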

How the data were processed

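Libraries were made from poly(A) RNA of cultured cells. Per the labels a stranded kit was used, whereas the methods also name a 3′ kit without saying which lines it served. The authors trimmed reads, mapped them to hg19 (Bowtie and TopHat are named in the submitters' processing notes) and deposited HTSeq counts per gene, not normalized, 1 file per library. Depth was 21723626 to 28560479 counts on genes in the 3 pancreatic lines. Whether counting used strand is not given in the sources used here. The 5 HTSeq summary rows were left out of totals.

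CPM were computed from the total on genes, as in the methods, and differences from log2(CPM + 1). A gene was called at a difference of 1 with at least 5 CPM in either line. Ratio intervals are exact (Clopper-Pearson) 95% binomial intervals, and 3 counts were taken as the floor. With 1 library per line the spread of this pair could not be estimated, and no p-value is printed for a single gene. Contrasts across all genes in edgeR 4.0.16 (quasi-likelihood) and DESeq2 1.42.0 with Benjamini-Hochberg adjustment used 20 libraries, without replicate 1 of HCC4006P1, and were tested on simulated data. The simulation gave every line the same spread, unlike the replicates above, so it cannot show how unequal spread affects the contrasts. Replicates are samples that the labels number separately, and whether they are separate cultures is not stated. Symbols and positions come from GENCODE v44lift37 (hg19), which matched 84.3% of identifiers. Promoters were matched by symbol, the first start of each gene in the RefSeq table. Named are the 12 protein-coding genes with the largest difference in each direction at 20 CPM or more, up to 3 called genes of each list and direction, 22 fixed genes, and up to 3 non-coding genes in each direction. List members named below the threshold outside these rules were chosen after their values were seen. The lines, lists and rules were chosen with earlier results of these data known. Alternatives varied the pseudocount, scaling, filters and threshold. The removal of the GC trend (medians of 20 bins) was added after seeing the data. R 4.3.3 and Python 3.11.15 were used.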

Additional observations from a re-analysis of the deposited data

Results flagged for a closer look

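For 2 of the genes called between the lines, PancB1V and PancB1Q lay on opposite sides of PancVB by at least 1 on the log2(CPM + 1) scale. LTB differed from PancVB by 1.84 in PancB1V and by -1.97 in PancB1Q. LGR6 differed from PancVB by -1.26 in PancB1V and by 1.07 in PancB1Q, at 15, 203 and 62 counts in PancB1V, PancB1Q and PancVB. Both values of each gene rest on the same PancVB library, and the difference between them was not tested.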

How the results depend on the processing

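The number of genes higher in PancB1V, 262, was 167 with DESeq2 size factors, 105 at 20 CPM or more, 31 at a difference of 2, and 0 and 55 in the edgeR and DESeq2 contrasts over 20 libraries. The number higher in PancB1Q, 43, was 78 with TMM library sizes, 101 with DESeq2 size factors, 2 at a difference of 2 and 0 in the edgeR contrast. Of the DESeq2 calls, 47 and 12 were among the genes called by difference. The DESeq2 size factors of the pair were equal, since many low genes have equal counts in both libraries. The remaining alternatives kept both counts within 1.5 times. Among lists with at least 5 genes past 5 CPM, a single list kept a median of at least 1 under all alternatives run. The mesenchymal minus epithelial difference (0.17 to 0.44) kept its direction. The range of chromosome medians, which cannot be negative, was 0.26 to 0.37. Of 69 named genes, 31 moved beyond counting error with TMM library sizes and 41 with DESeq2 size factors. Among them 0 called genes changed sign, which shifts of the median as small as -0.14 and -0.19 could hardly bring about. No paired analysis was possible because each line has 1 library. Depth limits genes near the floor of 3 counts, where 1 count can decide a ratio. That floor was 0.105 CPM in PancB1Q and 0.121 CPM in PancB1V. A gene under 5 CPM can lie well above it, as CDH1 did with 89 counts in PancB1Q and 20 in PancB1V.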
